A study of Homo sapiens with 6 samples.

Results

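In SiHa cells, 10 genes of calcium signalling were described out of 48162 gene identifiers counted: the calcium sensors NCS1 and HPCAL1, the lipid kinase PI4KB, the calcineurin catalytic subunit genes PPP3CA, PPP3CB and PPP3CC, the calcineurin regulatory subunit gene PPP3R1, the calcineurin inhibitors RCAN1 and RCAN3, and the calcineurin substrate NFATC3. They were chosen because NCS1 and PPP3CA were both lower after CNN3 knockdown in these same samples, so their differences are given as a description, with standard errors and without p-values. All 10 passed the filter on low counts, which left 15860 genes. SiHa is an established human cervical cancer cell line. In 3 samples the cells carried si-CNN3#1, an siRNA (small interfering RNA) directed at CNN3 mRNA, and in 3 samples si-NC, a control siRNA without a stated target. The medium used for transfection was replaced after 24 h according to the sample labels, whereas the study's methods give an earlier time, and RNA was harvested at 48 h. Cells of both groups were otherwise cultured alike, 1 siRNA against CNN3 and 1 cell line were used, and the knockdown was transient and partial.

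NCS1 (neuronal calcium sensor 1, also called frequenin) is a small EF-hand protein that changes shape when it binds calcium, and among its best known partners is PI4KB, which makes phosphatidylinositol 4-phosphate (PI4P) on Golgi membranes. Calcineurin is the calcium- and calmodulin-dependent protein phosphatase, built from a catalytic A subunit and a regulatory B subunit, and it is the target of the immunosuppressants cyclosporin A and tacrolimus. It dephosphorylates NFAT transcription factors, which then enter the nucleus, while RCAN proteins bind calcineurin and inhibit it. NCS1 is best known from neurons but is expressed in many other cell types.

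Total counts on genes were 18147028 to 19026341 in the si-CNN3#1 samples and 20287139 to 24976517 in the si-NC samples, so every si-NC sample was deeper. CNN3, the target, was counted 490, 514 and 574 times under si-CNN3#1 (replicates 1, 2 and 3, the order used throughout) and 1134, 1288 and 1234 times under si-NC. On library-scaled counts after TMM normalization (normalized CPM) this was 28.1 ± 2.95 against 55.2 ± 2.97 (SD, n = 3 each), or 50.9% of the si-NC level (log2 fold change −0.97, SE 0.06, adjusted p = 2.04e-20 by edgeR's quasi-likelihood test). The exact two-sided permutation test for CNN3 gave p = 0.1, the smallest that 3 samples against 3 allow. Markers of epithelium were present, with KRT8 at a mean of 501 FPKM (fragments per kilobase of gene, scaled to library size), KRT17 at 204 and KRT18 at 109, whereas KRT5 was at 0.378. The summed FPKM of the 7 epithelial markers was 794 to 857 in the si-CNN3#1 samples and 835 to 889 in the si-NC samples. The 3 neuronal markers SNAP25, SYT1 and RBFOX3 together reached 1.05 to 2.01 FPKM in any sample and each had a mean under 1, so defining markers of the cell type for which NCS1 is named were near 0. The summed FPKM over 3 leukocyte markers was 0.97 to 1.72, over 3 fibroblast markers 7.2 to 8.22, and of the endothelial marker CDH5 0.0299 to 0.287. In bulk RNA, a smaller number of expressing cells and less RNA per cell cannot be told apart.

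The siRNAs that define the groups are shown because every difference below is a difference between them. Each line gives the strand that pairs with the target (the guide), which was derived here by complementing and reversing the labelled sense strand after removal of its overhang, written 5′ to 3′ with bases 2 to 8, the seed, in capitals.
si-NC guide: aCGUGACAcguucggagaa
si-CNN3#1 guide: uUUGUUGGuucccaucugc
Matches were sought in 1 transcript per gene, the longest protein-coding one, so other transcripts of a gene were not searched. For HPCAL1 this transcript had 1941 bases, against 6237 in the union of its exons. The word complementary to the si-CNN3#1 seed, CCAACAA, was present in the 3′ untranslated region (UTR) of 8.7% of 12623 tested genes. It was in that of 0 of the 10 genes described here. HPCAL1 held the word 1 time in the transcript searched, outside the 3′ UTR. The word complementary to the si-NC seed, TGTCACG, was present in the 3′ UTR of 3.03% of the same genes, and among the 10 it occurred 1 time, near the end of the 4332-base 3′ UTR of NCS1. The site is printed with flanking bases, as chr9:130237252-130237271 on the plus strand (GRCh38, GENCODE release 29), which are bases 4939 to 4958 of the 4991-base transcript NCS1-201, with the seed match in capitals.
NCS1 site: gtatgtcgtccaTGTCACGc
RCAN3 held the longest match to an siRNA among the 10 genes: 14 consecutive bases of transcript RCAN3-202 (bases 6467 to 6480, in its 3′ UTR) were identical to bases 1 to 14 of the si-NC sense strand. They are printed with flanking bases, as chr1:24540702-24540721 on the plus strand of GRCh38. No other gene of the 12679 searched had a match of 14 or more bases to that strand (0.00789%). The identical bases are in capitals.
RCAN3 site: attTTCTCCGAACGTGTttg
The longest matches to the si-CNN3#1 sense strand were 10 bases in PPP3R1 and NFATC3 and 9 bases in NCS1 and PPP3CA. Matches of at least 10 bases occurred in 5.02% of the genes searched and matches of at least 9 bases in 17.2%. The part of any siRNA match in the differences described below was not tested.

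In the comparison of all 15860 tested genes, 2111 were past an adjusted p of 0.05 (13.3%), 1133 lower with si-CNN3#1 (7.14%) and 978 higher (6.17%). The split depended on the scaling: higher genes were 46.3% of the calls with TMM factors and 60.0% with total counts alone. Of the 10 genes, 4 were past that threshold, NCS1, PPP3CA and PPP3CB lower and NFATC3 higher, and because they were chosen on this contrast nothing is read from that count. The 3 normalized CPM values of one group lay entirely above or below those of the other in 5 of the 10 genes, which are these 4 and PPP3CC. Among all tested genes the groups did not overlap in 28.2%. The median log2 fold change of the 10 genes was −0.04, and that of all tested genes was 0.00.

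**Figure D1:**
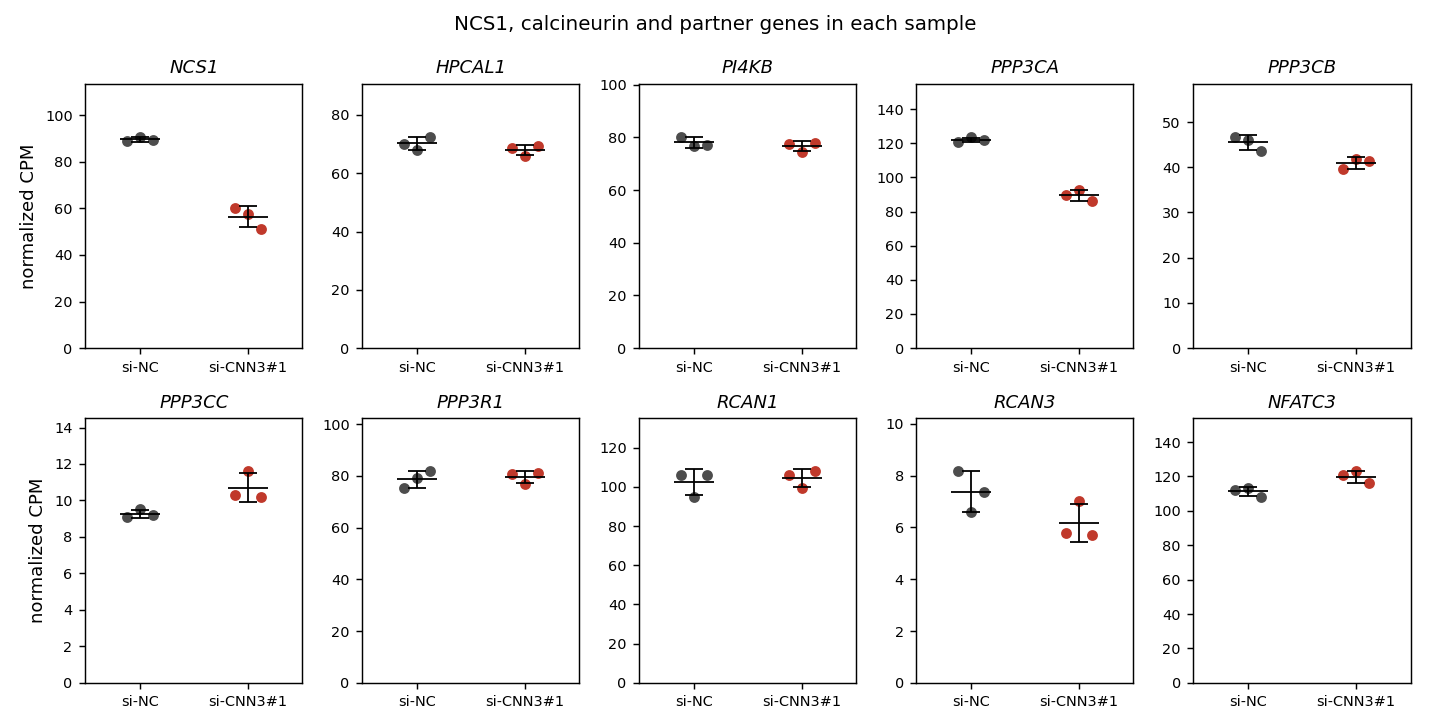
Normalized CPM (vertical axes, from 0, a separate scale per gene) of the 10 genes in each sample, with si-NC samples in grey and si-CNN3#1 samples in red. Each point is a sample, ordered by replicate number from left to right, and the bars give the mean ± SD (n = 3); the groups lie apart for NCS1, PPP3CA, PPP3CB, PPP3CC and NFATC3 and overlap for the other genes.

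NCS1 (ENSG00000107130, chr9:130172578-130237304 on GRCh38, plus strand) had 1131, 1109 and 936 counts under si-CNN3#1 and 1779, 2261 and 1923 counts under si-NC. Scaled for depth, this was 60.0, 57.7 and 51.3 normalized CPM with si-CNN3#1 against 88.7, 90.8 and 89.1 with si-NC. All si-CNN3#1 samples lay far below the lowest si-NC sample, replicate 3 was the lowest of them, and the si-NC samples lay close together. The means were 56.3 ± 4.53 and 89.5 ± 1.14 normalized CPM, or 62.9% of the si-NC level (log2 fold change −0.67, SE 0.04). The coefficient of variation between replicates was 8.04% with si-CNN3#1 and 1.27% with si-NC. Of the 15860 tested genes, 84 had a lower log2 fold change than NCS1. Over all 16 alternative analyses its log2 fold change stayed between −0.72 and −0.61.

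RefSeq lists 2 promoter windows for NCS1, and the upstream one is printed because NCS1 had the largest difference among the 10 genes. It runs from 250 bases before to 50 bases after the start at chr9:130172154-130172453 (GRCh38.p14, plus strand), and the word GGGCGG, the GC box bound by SP1-type factors, is in capitals where it occurs on either strand.
NCS1 promoter: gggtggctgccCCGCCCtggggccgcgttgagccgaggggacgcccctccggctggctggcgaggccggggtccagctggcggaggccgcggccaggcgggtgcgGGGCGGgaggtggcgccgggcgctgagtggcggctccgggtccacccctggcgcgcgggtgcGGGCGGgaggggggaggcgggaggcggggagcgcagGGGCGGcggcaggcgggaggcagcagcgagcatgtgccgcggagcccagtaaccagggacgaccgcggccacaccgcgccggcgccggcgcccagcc
This window was 82.7% G and C, above 99.1% of the 35116 promoter windows of the same length, whose median was 58.7%. It held 42 CpG dinucleotides, where the median window held 14, and 4 GC boxes. Such a window was not particular to NCS1. HPCAL1, whose groups overlapped, had a window with 81.3% G and C, 40 CpG dinucleotides and 4 GC boxes. PPP3R1, also overlapping, had 1 with 75.3%, 44 and 6. The windows of PI4KB, overlapping as well, were 49.3% and 52.7% G and C with 1 GC box each. The other NCS1 window, at chr9:130200150-130200449, was 52.0% G and C, above 34.8% of all windows, and held 8 CpG dinucleotides and 0 GC boxes. The gene counts do not separate the starts. At least 1 GC box was present in 45.0% of all windows. Promoter windows were found for 7 of the 10 genes, and matches to a word are a description of the sequence only.

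HPCAL1 (hippocalcin-like 1, ENSG00000115756, chr2:10302889-10427617, plus strand) belongs to the same family of neuronal calcium sensors as NCS1. Its 3 si-CNN3#1 samples were at 68.7, 66.0 and 69.4 normalized CPM and its 3 si-NC samples at 70.1, 68.0 and 72.6. The groups overlapped, with a log2 fold change of −0.05 (SE 0.04). As a level per length, NCS1 stood at 0.73 ± 0.0314 of HPCAL1 FPKM in si-NC samples and at 0.474 ± 0.045 in si-CNN3#1 samples (SD, n = 3 each). The ratio was 0.702 to 0.764 in si-NC samples and 0.422 to 0.501 in si-CNN3#1 samples. It follows NCS1, a gene chosen for being lower, and adds no separate difference.

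PI4KB (phosphatidylinositol 4-kinase beta, ENSG00000143393, chr1:151291797-151327715, minus strand), the lipid kinase that NCS1 binds, was at 77.5, 74.4 and 77.8 normalized CPM with si-CNN3#1 and at 80.3, 76.8 and 77.1 with si-NC. The groups overlapped and the log2 fold change was −0.03 (SE 0.04). PI4KB shares 384 exon bases with ZNF687 on the other strand, which had 1185 to 1791 counts against 1421 to 1911 for PI4KB. Whether counting used strand is not given in the sources used here, so reads in the shared bases cannot be assigned with certainty. The log2 fold change of ZNF687 was 0.01 (SE 0.04).

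PPP3CA encodes the alpha form of the calcineurin catalytic subunit (ENSG00000138814, chr4:101023409-101348278, minus strand). It had 1697, 1778 and 1573 counts under si-CNN3#1 and 2430, 3076 and 2626 counts under si-NC. In normalized CPM the si-CNN3#1 samples were at 90.0, 92.6 and 86.2 and the si-NC samples at 121, 124 and 122. As for NCS1, every si-CNN3#1 sample lay below every si-NC sample, and si-CNN3#1 replicate 3 was the lowest. The mean was 89.6 ± 3.24 against 122.1 ± 1.28 normalized CPM, or 73.3% of the si-NC level (log2 fold change −0.45, SE 0.03). The value stayed between −0.47 and −0.42 over the 16 alternatives. In the comparison of all genes, 237 of the 2111 genes past the threshold, PPP3CA included, had a log2 fold change of at least this size.

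PPP3CB encodes the beta form of the catalytic subunit (ENSG00000107758, chr10:73436428-73496024, minus strand). Its si-CNN3#1 samples were at 39.6, 41.9 and 41.4 normalized CPM and its si-NC samples at 46.8, 46.1 and 43.7. The groups did not overlap, but the lowest si-NC sample was close to the highest si-CNN3#1 sample, and the mean was 90.0% of the si-NC level (log2 fold change −0.15, SE 0.05). PPP3CB was no longer past the threshold in 8 of 16 alternatives, among them the fits without si-CNN3#1 replicate 1 (−0.13), without si-NC replicate 1 (−0.13) and without si-NC replicate 2 (−0.14).

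PPP3CC encodes the gamma form (ENSG00000120910, chr8:22440819-22541142, plus strand), which is known above all from testis, and had 182 to 237 counts per sample. It was at 10.3, 11.6 and 10.2 normalized CPM with si-CNN3#1 and at 9.07, 9.52 and 9.22 with si-NC. Every si-CNN3#1 value was above every si-NC value, the mean was 115% of the si-NC level, and the log2 fold change was 0.21 (SE 0.09). It was past the threshold in none of the 16 alternatives. The antisense gene AC037459.2 shares 298 exon bases with PPP3CC and had 6 to 28 counts.

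Taken as FPKM, the 3 catalytic subunit genes summed to 66.0, 70.0 and 65.6 under si-CNN3#1 and 81.3, 83.0 and 80.5 under si-NC. The lowest si-NC sum was above the highest si-CNN3#1 sum. Of that sum, PPP3CA made up 65.4% ± 0.611 in si-NC samples and 59.0% ± 0.917 in si-CNN3#1 samples (SD, n = 3 each). PPP3CB made up 25.9% ± 0.7 and 28.7% ± 0.907, and PPP3CC made up 8.67% ± 0.161 and 12.3% ± 0.52. PPP3CA was thus the most abundant catalytic transcript in every sample, with a share of 64.9% to 66.1% in si-NC samples and 58.2% to 60.0% in si-CNN3#1 samples. The sum and the share of PPP3CA mostly follow PPP3CA, a gene chosen for being lower. The share of PPP3CC also follows its own level, which was 8.27 FPKM with si-CNN3#1 and 7.08 with si-NC. The share of PPP3CB was larger with si-CNN3#1 although its own level was 90.0% of the si-NC level.

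PPP3R1 encodes calcineurin B, the regulatory subunit that binds calcium (ENSG00000221823, chr2:68178857-68256237, minus strand). Its level was 80.8, 76.8 and 81.3 normalized CPM with si-CNN3#1 and 75.2, 79.1 and 81.8 with si-NC. The groups overlapped widely, with a log2 fold change of 0.02 (SE 0.04). FPKM of the catalytic subunits per FPKM of PPP3R1 was 1.88, 1.81 and 1.70 under si-NC and 1.40, 1.55 and 1.38 under si-CNN3#1. Catalytic transcripts therefore exceeded PPP3R1 transcripts on this scale in all samples, by less in the si-CNN3#1 samples (1.44 ± 0.0929) than in the si-NC samples (1.80 ± 0.0907). With PPP3R1 overlapping, this ratio again mostly follows PPP3CA, a gene chosen for being lower. The GENCODE model AC017083.3 shares 462 exon bases with PPP3R1 on the same strand and was not used here.

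**Figure D2:**
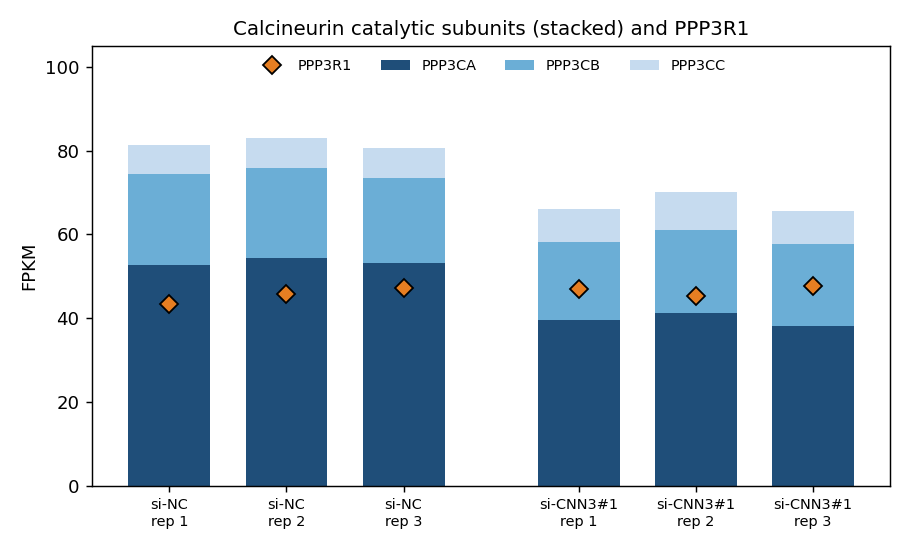
FPKM (vertical axis) of the calcineurin catalytic subunit genes PPP3CA, PPP3CB and PPP3CC, stacked in a bar per sample, with PPP3R1 of the same sample as an orange diamond. The stacked height is 80.5 to 83.0 in the si-NC samples and 65.6 to 70.0 in the si-CNN3#1 samples, most of the gap lies in the dark PPP3CA segment, and the PPP3R1 diamonds stay between 43.3 and 47.7. PPP3CA was chosen for being lower.

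RCAN1 (regulator of calcineurin 1, ENSG00000159200, chr21:34513142-34615142, minus strand) binds and inhibits calcineurin. It was at 106, 99.3 and 108 normalized CPM with si-CNN3#1 and at 106, 95.1 and 106 with si-NC. The groups overlapped, and replicate 2 was the lowest in both. The log2 fold change was 0.03 (SE 0.04). RCAN1 FPKM per catalytic subunit FPKM was 0.785 ± 0.0605 in si-CNN3#1 samples and 0.626 ± 0.0467 in si-NC samples. Since RCAN1 itself overlapped, this ratio follows the catalytic sum, most of which is PPP3CA, a gene chosen for being lower.

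RCAN1 is known as a target of the pathway it inhibits, since calcineurin and NFAT induce a short form from an internal start. The RefSeq window of that kind at chr21:34526773-34527072 (GRCh38.p14, minus strand) is printed because, of the 6 RCAN1 windows, it held the most copies of GGAAA, the core of NFAT sites, which are in capitals on either strand.
RCAN1 internal promoter: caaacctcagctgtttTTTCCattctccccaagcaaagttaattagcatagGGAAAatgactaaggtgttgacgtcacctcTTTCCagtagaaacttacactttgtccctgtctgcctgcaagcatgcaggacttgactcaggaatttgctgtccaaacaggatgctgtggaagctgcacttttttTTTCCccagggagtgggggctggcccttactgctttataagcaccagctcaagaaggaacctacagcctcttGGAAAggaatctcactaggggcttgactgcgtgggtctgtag
It held 5 such words, a number reached by 260 of 35116 windows (0.74%), whereas at least 1 was present in 61.2%. The other RCAN1 windows held 0 or 1. Because the window with the most was picked, the 0.74% does not measure how unusual RCAN1 is. The printed window was 48.0% G and C, where the median of all windows was 58.7%. It also held 1 copy of TGACGTCA, the cyclic AMP response element, which was present in 1.85% of all windows and overlaps none of the capitals. The gene counts do not separate the RCAN1 starts, so the short form was not measured.

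RCAN3 (ENSG00000117602, chr1:24502351-24541040, plus strand), another RCAN family inhibitor, had 104 to 164 counts and was the least precisely measured of the 10 genes. Its values were 5.78, 7.03 and 5.70 normalized CPM with si-CNN3#1 and 8.17, 6.59 and 7.37 with si-NC. The groups overlapped, because si-CNN3#1 replicate 2 was above si-NC replicate 2. The mean was 83.6% of the si-NC level (log2 fold change −0.25, SE 0.11), and the difference was not past the threshold. The noncoding gene AL445686.2 on the other strand shares 1075 exon bases with RCAN3, had 21 to 58 counts, and had a log2 fold change of −0.40 (SE 0.22).

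NFATC3 (NFAT4, ENSG00000072736, chr16:68084751-68229259, plus strand) is a transcription factor that calcineurin dephosphorylates. It was at 121, 123 and 116 normalized CPM with si-CNN3#1 and at 112, 113 and 108 with si-NC. The groups lay apart by a small margin, with means of 119.8 ± 3.47 and 111 ± 2.72, 108% of the si-NC level (log2 fold change 0.11, SE 0.03). It was no longer past the threshold in 8 of 16 alternatives, including the fits without si-CNN3#1 replicate 1 (0.10), without si-CNN3#1 replicate 2 (0.09) and without si-NC replicate 3 (0.08). ESRP2 on the other strand shares 149 exon bases with NFATC3 and had 2642 to 3381 counts, with a log2 fold change of 0.04 (SE 0.03). Larger overlaps were with genes of few or no counts. On the same strand AC020978.7 shares 1385 exon bases and had 27 to 48 counts (log2 fold change −0.37, SE 0.21). The antisense gene AC020978.5 shares 2796 and had 0 counts.

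**Figure D3:**
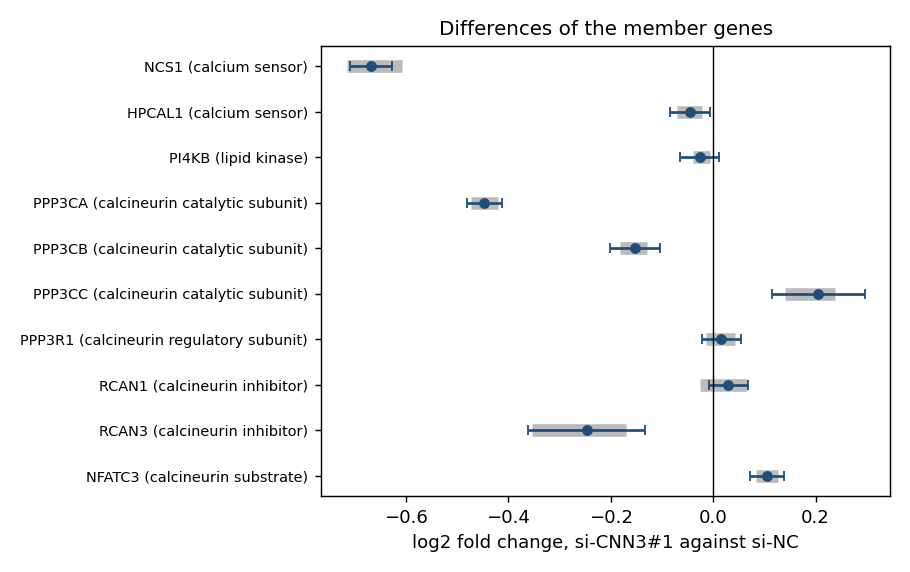
Log2 fold change of the 10 genes, si-CNN3#1 against si-NC (horizontal axis); points and bars are edgeR's estimate ± SE, and grey bands span the values of the 16 alternative analyses. The set was chosen because NCS1 and PPP3CA were lower. They lie at −0.67 and −0.45, apart from the other 8 genes, whose estimates run from −0.25 to 0.21.

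Ordered by FPKM in the si-NC samples, PPP3CA was highest (53.4 ± 0.763), followed by RCAN1 (51.0 ± 3.07), PPP3R1 (45.5 ± 2.01), PI4KB (40.2 ± 0.871) and HPCAL1 (36.3 ± 1.13). NFATC3 (33.4 ± 0.858), NCS1 (26.4 ± 0.436), PPP3CB (21.1 ± 0.742), PPP3CC (7.08 ± 0.202) and RCAN3 (6.30 ± 0.653) came after them. Neighbours in this order had ranges over 3 samples that did not overlap, except PPP3CA with RCAN1 and PPP3CC with RCAN3. In the si-CNN3#1 samples RCAN1 was highest (52.6 ± 2.26 FPKM), PPP3CA (39.6 ± 1.49) stood next below PI4KB (39.9 ± 0.857) and overlapped it, and NCS1 (16.8 ± 1.31) stood below PPP3CB (19.3 ± 0.687). The order depends on the gene length used. The lengths behind the deposited FPKM were 3361 bases for NCS1, 2270 for PPP3CA and 1996 for RCAN1, whereas the union of their GENCODE exons was 5289, 5213 and 6990 bases. Per kilobase of exon union, 5 of the 10 genes changed position, with NCS1 at 16.9 normalized CPM per kilobase now above RCAN1 at 14.7.

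Genes whose pattern over the 6 samples was most like that of NCS1, by the distance between log2 CPM values centred on their mean, were FAM57A (distance 0.103), DPY19L1 (0.137) and B3GNT2 (0.143). Their log2 fold changes were −0.67, −0.62 and −0.62. For PPP3CA they were TGM2 (0.0414), a transglutaminase that crosslinks proteins, ABCG1 (0.0618), a cholesterol exporter, and CHST12 (0.0764), with log2 fold changes of −0.43, −0.45 and −0.44. All 6 samples come from the same contrast, so the likeness is mostly that of the fold change, and 0 of these 6 genes were among those ranked first by Pearson correlation.

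A list of 117 other genes of calcium signalling, calcineurin and PI4P handling was examined beside the 10, of which 91 were tested. Past the adjusted p of 0.05 by edgeR's quasi-likelihood test were 13 (14.3%, against 13.3% of all tested genes), 5 higher and 8 lower, and the median log2 fold change of the list was −0.01. Each of the 13 is named below, a choice made after their values were seen. With 1 exception, ATP2A3, their log2 fold changes were between −0.17 and 0.16. Leaving out any sample lowered the count: 8 genes were past the threshold without si-CNN3#1 replicate 1, 8 without si-CNN3#1 replicate 2, 10 without si-CNN3#1 replicate 3, 8 without si-NC replicate 1, 8 without si-NC replicate 2 and 6 without si-NC replicate 3. The genes CSNK1E, PIP5K1A and ATP2B1 were past it in all 6 of these fits. DESeq2, run without the filter on low counts, called 6 of 113 list genes and 1087 of 30502 genes in all.

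Other neuronal calcium sensors and EF-hand proteins gave 0 of 10 tested genes past the threshold by edgeR (against 13.3% of all tested genes) and 0 by DESeq2. At an unadjusted p under 0.05 there was 1, HPCAL4, another NCS1 relative, with 4 to 22 counts and a log2 fold change of −0.89 (SE 0.37, adjusted p = 0.111 by edgeR). The most abundant of the group, S100A6, a small calcium-binding protein of epithelial cells, had a log2 fold change of 0.01 (SE 0.03). Of the other NCS1 partners 0 of 3 passed with either tool (against 13.3% of all tested genes by edgeR) and 0 had an unadjusted p under 0.05. In groups of so few genes, a count of 0 is not read as a difference from that share. The best measured of them, RIC8A, a chaperone and exchange factor of G protein alpha subunits, was at −0.01 (SE 0.03).

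Calmodulin is the calcium sensor that activates calcineurin and the calmodulin-dependent kinases. In this group 1 of 10 tested genes passed the threshold (10.0%, against 13.3% of all tested genes). CALM3, a calmodulin gene, was at 272, 267 and 263 normalized CPM with si-CNN3#1 and at 287, 293 and 278 with si-NC. The groups lay apart, with a log2 fold change of −0.10 (SE 0.03, adjusted p = 0.00847 by edgeR). Without si-NC replicate 2 its adjusted p was 0.0895. CALM2, which encodes the same protein, had a log2 fold change of 0.02 (adjusted p = 0.729 by edgeR).

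Among other calcineurin regulators and anchors 1 of 6 tested genes passed (16.7%, against 13.3% of all tested genes). FKBP1A, the immunophilin through which tacrolimus inhibits calcineurin, was lower (log2 fold change −0.08, SE 0.03, adjusted p = 0.0294 by edgeR), and it lost that call in 4 of the 6 fits that left out a sample, those without si-CNN3#1 replicate 2 (0.179), si-NC replicate 1 (0.105), si-NC replicate 2 (0.0622) or si-NC replicate 3 (0.0763). PPIA, the cyclosporin-binding immunophilin and the most abundant gene of the list, was at 0.03 (SE 0.02). RCAN2 had 0 to 1 counts in each sample and was not tested, so RCAN1 and RCAN3 were the detected members of the family.

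Of the other NFAT factors, NFATC1 was tested and was at −0.09 (SE 0.14, adjusted p = 0.757 by edgeR), whereas NFATC2 with 7 to 11 counts and NFATC4 with 0 to 1 counts were below the filter. NFATC3 was therefore the calcineurin-regulated NFAT with by far the most counts in these cells. NFAT5, the factor that responds to osmotic stress and lacks the calcineurin-binding region, was higher by 0.07 (SE 0.03, adjusted p = 0.0394 by edgeR). CSNK1E, a casein kinase 1 isoform from the family that phosphorylates NFAT, was lower by a log2 fold change of −0.12 (SE 0.03, adjusted p = 0.000953 by edgeR). These were the 2 of 12 tested genes past the threshold in this group (16.7%, against 13.3% of all tested genes). NFAT5 lost its call without si-CNN3#1 replicate 2 (0.15), si-CNN3#1 replicate 3 (0.056), si-NC replicate 1 (0.252) or si-NC replicate 3 (0.0682), given as adjusted p.

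Of 11 other calcineurin substrates tested, 2 passed (18.2%, against 13.3% of all tested genes), both transcription factors. MEF2A was higher (log2 fold change 0.12, SE 0.03, adjusted p = 0.0105 by edgeR), and TFE3, a lysosomal and autophagy regulator, was lower (−0.11, SE 0.03, adjusted p = 0.0138 by edgeR). The call of MEF2A was lost without si-CNN3#1 replicate 1 (adjusted p = 0.127), si-NC replicate 2 (0.0536) or si-NC replicate 3 (0.0663), and that of TFE3 without si-NC replicate 3 (0.109). DNM1L, the mitochondrial fission GTPase, was the most abundant of the group and was at 0.05 (SE 0.03).

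Around PI4KB, 3 of 16 tested genes of PI4P synthesis and handling passed (18.8%, against 13.3% of all tested genes). PIP5K1A, which turns PI4P into phosphatidylinositol 4,5-bisphosphate, was at 171, 172 and 174 normalized CPM with si-CNN3#1 and at 154, 154 and 157 with si-NC. It was higher by a log2 fold change of 0.16 (SE 0.03, adjusted p = 8.61e-05 by edgeR), and the groups lay apart. SACM1L, the phosphatase that removes PI4P, and OSBP, which exchanges PI4P for cholesterol at the Golgi, were both at −0.12 (SE 0.04 and 0.03, adjusted p = 0.0259 and 0.0127 by edgeR). SACM1L lost its call without si-CNN3#1 replicate 1 (0.147), si-CNN3#1 replicate 2 (0.0789), si-NC replicate 1 (0.0517) or si-NC replicate 3 (0.195), and OSBP without si-CNN3#1 replicate 3 (0.166) or si-NC replicate 3 (0.0515), given as adjusted p. ARF1, the GTPase that recruits PI4KB to the Golgi, was at −0.01 (SE 0.03).

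Of 23 tested genes of calcium release, entry and removal, 4 passed (17.4%, against 13.3% of all tested genes), in both directions. ATP2A2, the widely expressed pump of the endoplasmic reticulum, was higher (log2 fold change 0.10, SE 0.03, adjusted p = 0.00746 by edgeR), as was ATP2B1, a pump of the plasma membrane (0.15, SE 0.03, adjusted p = 0.00102 by edgeR). ATP2A3, another endoplasmic reticulum pump, was counted 15, 22 and 22 times under si-CNN3#1 and 43, 50 and 32 times under si-NC, and was lower by a log2 fold change of −0.84 (SE 0.25, adjusted p = 0.0154 by edgeR). ORAI2, a subunit of store-operated calcium channels, was lower (−0.17, SE 0.06, adjusted p = 0.0443 by edgeR). The ATP2A2 call was lost without si-CNN3#1 replicate 1 (0.0661), si-CNN3#1 replicate 2 (0.0642) or si-NC replicate 3 (0.0634), and the ATP2A3 call without si-CNN3#1 replicate 1 (0.102), si-NC replicate 1 (0.0797) or si-NC replicate 2 (0.0681), given as adjusted p. ORAI2 kept its call only in the fit without si-NC replicate 3 among the 6 that left out a sample, with adjusted p between 0.0551 and 0.255 in the others.

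**Figure D4:**
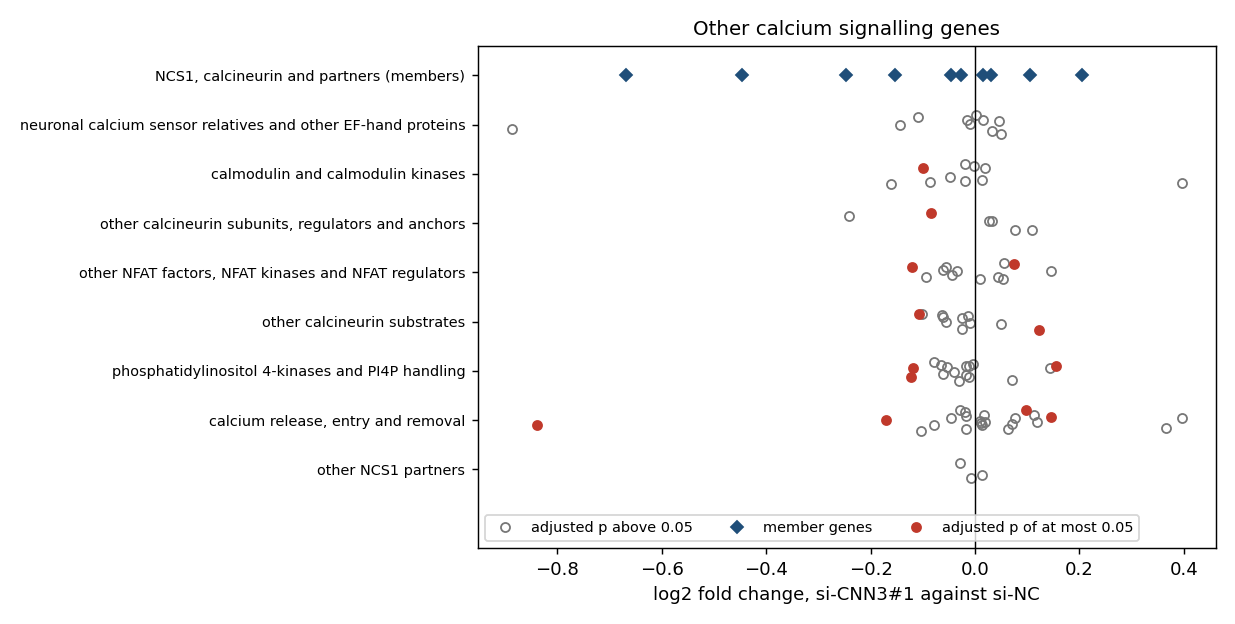
Log2 fold change, si-CNN3#1 against si-NC (horizontal axis), of the 91 tested genes of the calcium signalling list by group, with filled red circles past an adjusted p of 0.05 and open circles not, and the 10 chosen genes as blue diamonds in the top line. Apart from ATP2A3 at −0.84, the 13 red points lie between −0.17 and 0.16; vertical scatter within a group only separates the points.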

How the data were processed

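RNA of 3 si-CNN3#1 and 3 si-NC samples was sequenced from TruSeq libraries. The authors deposited raw read counts per Ensembl gene and sample, and FPKM values that they computed from the same counts. Checked on the values, count divided by length and column total returned FPKM with 1 whole length per gene (within 0.01) in 19856 of 19856 genes with counts in all samples. The submitters' processing notes name TopHat2 2.0.9, Bowtie2 2.0.6, DESeq 1.10.1 and HTSeq, and the genome build and strand setting are not given in the sources used here. GENCODE release 29 named 45342 of 48162 identifiers. The study describes 3 independent assays.

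Counts were compared with the quasi-likelihood test of edgeR 4.0.16 under R 4.3.3 (filterByExpr, then TMM factors, glmQLFit, glmQLFTest, no covariate, Benjamini-Hochberg adjustment over 15860 genes, threshold 0.05). Standard errors are the size of the log2 fold change over √F. Total counts were 18147028 to 24976517. No library was merged, since the chi-square per degree of freedom between samples of a group was 1.52 to 1.90, above sampling noise. Precision therefore depended on variation between replicates as well as on depth. The edgeR, DESeq2 and limma fits were tested on simulated data, drawn from these samples' means and totals with known changes in some genes.

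The 10 genes, the lists and the tests were chosen with earlier results of these data known. Named are the 10 genes, CNN3, the list genes past the threshold, calmodulin, RCAN and NFAT genes, the most abundant list gene of each group, HPCAL4 (chosen after its values were seen), and the 3 genes most like NCS1 and PPP3CA. An item named by this rule is not reported here. Alternatives were RLE, upper-quartile and total-count scaling, DESeq2 1.42.0, other filters (none, or 10 counts in each sample), a replicate block, each sample left out, and limma 3.58.1 on log2 FPKM values (pseudocount 1, or 0.1, in genes averaging 1 FPKM or more, and pseudocount 1 without that filter).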

Additional observations from a re-analysis of the deposited data

How the results depend on the processing

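The log2 fold change of CNN3 stayed between −1.06 and −0.92 and past the threshold in all 16 alternatives. Counts of calls depended on the tool. Over all genes, 2111 calls by edgeR became 1087 with DESeq2, 582 with limma on log2(FPKM + 1), 478 with a pseudocount of 0.1 and 217 without the filter on low values, and 1551 to 1747 when a sample was left out. In the calcium signalling list the 13 calls became 6 with DESeq2 and 1, 1 and 0 with the same limma fits (15 genes had an unadjusted p under 0.05 where limma called 0), and 6 to 10 when a sample was left out. Of the 10 genes the 4 calls became 2 with DESeq2, 2 in each limma fit, and 2 to 4 when a sample was left out. With the replicate number as a block, calls were 2727 over all genes, 16 in the list and 4 of the 10. Deviations of same-numbered si-NC and si-CNN3#1 samples had correlations of 0.0105, 0.0329 and 0.0275, all under 0.1. Those of differently numbered samples ran from −0.0268 to −0.000801, so every sample correlated best with its own number. Whether the numbers mark paired samples was not tested. Exon-union lengths, an alternative chosen after seeing the data, moved 5 genes in the order of levels, and Pearson correlation named 0 of the same 6 most similar genes. For the 13 list genes, 128 of 205 values under the alternatives kept their side of the threshold, 77 lost the call and 0 changed sign. Among the 10 genes, PPP3CB and NFATC3 lost the call in 8 alternatives each. The log2 fold changes of PPP3R1 and RCAN1, which were not past the threshold, turned from 0.02 to −0.01 without si-NC replicate 1 and from 0.03 to −0.03 without si-NC replicate 2. The causes were not tested. Genes of few counts, such as RCAN3, PPP3CC and ATP2A3, limit what a difference can show.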

Other observations

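Among the si-CNN3#1 samples, replicate 3 had the highest remaining CNN3, at 31.4 normalized CPM against 26.0 and 26.8 in replicates 1 and 2. The same sample had the lowest NCS1, at 51.3 normalized CPM against 60.0 and 57.7, and the lowest PPP3CA, at 86.2 against 90.0 and 92.6. With 3 samples no relation between these values was tested.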
